A study of Homo sapiens with 8 samples.

Results

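Plasma cells and the lymphocytes they come from find and keep their place in tissue through G protein-coupled receptors that read gradients of chemokines and of the lipid sphingosine 1-phosphate (S1P). The 8 homing receptors described here are CXCR4, CXCR5, CXCR3, CCR2, CCR6, CCR7, CCR10 and S1PR1. They were chosen by name, with earlier results of these data known. Every probe set whose platform annotation gives one of these symbols was taken, which gave 13 of the 54675 probe sets of the array for 8 of 19775 genes with a probe set of their own. No probe set that lists several genes names a member.

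Expression was measured on 8 HG-U133 Plus 2.0 arrays, a human genome-wide design in which a probe set is a group of short oligonucleotides for one transcript. The cells, labelled MM1S and OPM1 and given as human multiple myeloma cell lines, were each cultured without drug or with Zalypsis at 5 nM, a synthetic compound related to marine alkaloids that binds DNA. The 4 groups of line by treatment held 2 arrays each: MM1S control, MM1S Zalypsis, OPM1 control and OPM1 Zalypsis. Treated cells were harvested when 15 to 20% of them were dying by annexin V staining, no source names the hours of exposure, and no genetic change is named for either line. Each line is 1 model, and whether the 2 RNA samples in a group stem from independent cultures is not labelled. The spread behind each p-value may thus be only technical.

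In the bone marrow, stromal cells make CXCL12, and CXCR4 on plasma cells binds it and holds the cells there. S1PR1 works the other way and draws lymphocytes out of tissue towards S1P in blood and lymph. The other receptors direct cells to follicles, T cell zones, inflamed tissue, skin or mucosa. After a ligand binds, the receptors signal through inhibitory G proteins to the actin machinery, are phosphorylated by receptor kinases and are taken in and either recycled or degraded. Myeloma cells use the same receptors, and CXCR4 is the one best known for their retention in marrow.

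The deposited signals are linear values normalized by the authors, and the array's median ranged from 23.0 to 24.8. The upper quartile ranged from 101 to 115 on 6 arrays and was 77.5 and 78.7 on the treated OPM1 arrays. The first OPM1 control array had a 3' to 5' signal ratio of 2.26 for GAPDH, against 0.963 to 1.06 on the other arrays, and of 5.80 for ACTB, against 1.78 to 2.62, ratios in use as measures of RNA quality. The poly-A control RNAs, bacterial transcripts added before labelling, had a geometric mean signal over 4 probe sets of 19.7 to 25.7 on the MM1S arrays. That mean was 299.7 and 448 on the OPM1 control arrays, and 1862 and 1349 on the treated OPM1 arrays. Over the 41091 probe sets with 1 gene symbol, correlations of log2 values were 0.988 to 0.994 within a group and 0.791 to 0.961 across groups.

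MM1S carried plasma cell markers, with a summed signal over 10 genes of 35175 to 37390 in control arrays and a syndecan-1 (SDC1) signal of 3194. The OPM1-labelled control arrays had SDC1 at 9.71 and plasma cell sums of 5681 to 6282. Their sums over 10 measured B cell markers were 12574 to 14806, against 349.0 to 445 in MM1S control arrays. PAX5, the B lineage transcription factor, stood at 3219 in OPM1 controls and 6.88 in MM1S controls. Of 10 tested B cell markers, 10 were called higher in untreated OPM1 than in untreated MM1S, and of 10 plasma cell markers 8 were lower and 2 higher. The OPM1-labelled cells thus had marked expression of B lineage genes, with SDC1 at the level of genes without known expression. Of the 10 plasma cell markers, however, 9 had OPM1 control means above 36.9, the dim reference level described below, as 9 had in MM1S controls. The cells are called OPM1 here as the labels have it, and their identity was not tested. T cell markers summed to 1588 to 1732 in MM1S controls, mostly from CD28 at 1190, and to 350 to 380 in OPM1 controls.

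To judge which receptor signals were above those of genes without known expression, 25 tissue-restricted genes such as those for albumin and insulin served as a dim reference. Their 42 probe sets had a median signal of 12.3 and a 90th percentile of 36.9 over all arrays, and a 90th percentile of 61.8 on the treated OPM1 arrays. CXCR4 alone among the members had signals above 36.9 on all 8 arrays, from each of its 3 probe sets. CXCR3, CCR2 and CCR10 lay above it in MM1S and CCR7 in OPM1, by the probe set that stands for each gene. CCR6 and S1PR1 lay below it on all 8 arrays.

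**Figure D1:**
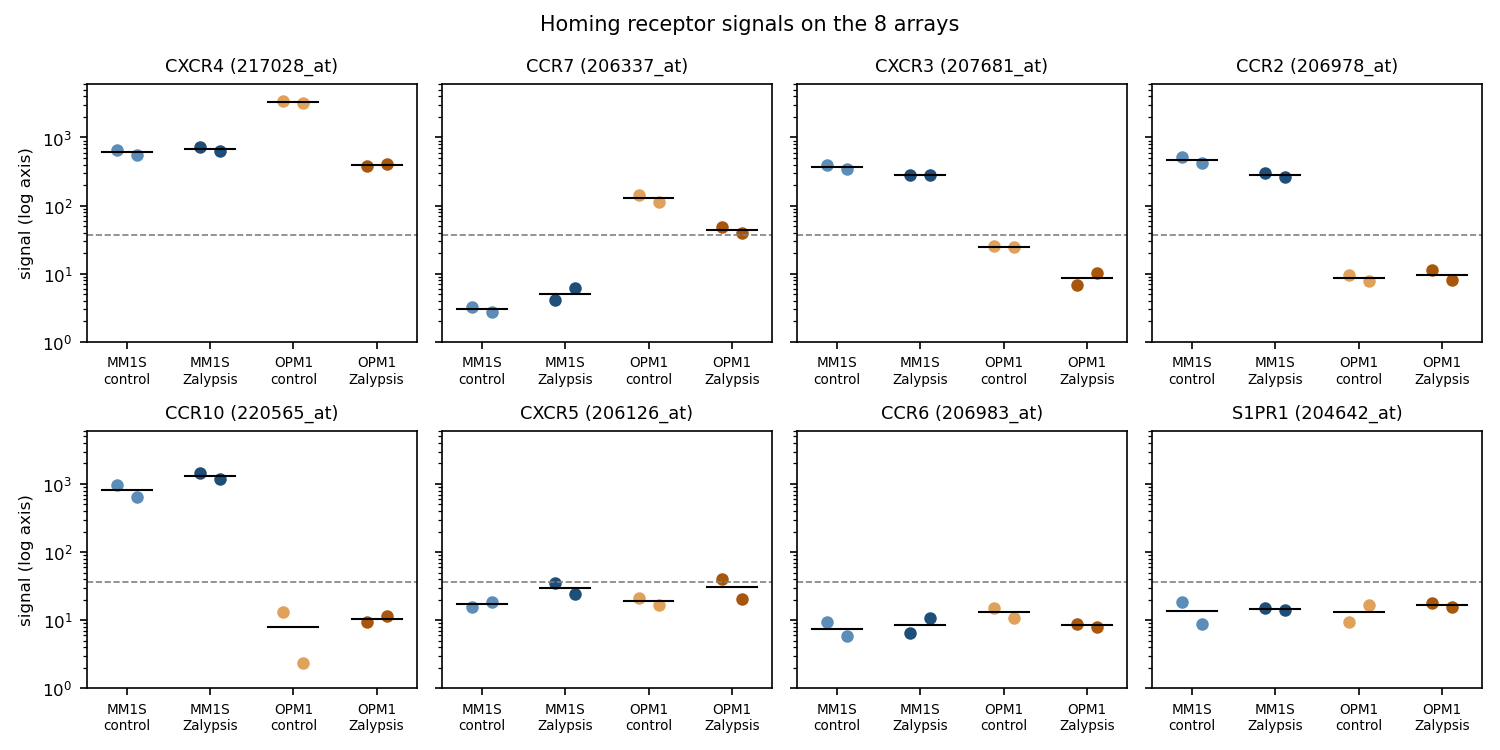
Signal (log axis) of the 8 homing receptors on each array, by the probe set with the highest mean for each gene. Points are arrays, 2 in each group of line and treatment, short black lines are group means, and the dashed line is the 90th percentile of the dim reference genes, 36.9. CXCR4 falls from about 3309 to 397 in OPM1, CCR7 is above the line only in OPM1, CXCR3, CCR2 and CCR10 are above it only in MM1S, and CXCR5, CCR6 and S1PR1 lie at or below it nearly everywhere.

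The sequences upstream of the receptor genes differ widely, and the promoters of 3 members whose signals changed are shown to set their base composition and motifs side by side. RefSeq start sites on GRCh38.p14 were given for 6 of the 8 members, with 10 start sites in all, and each sequence is the 250 bases just upstream of a start, read 5' to 3' on the gene's strand. Capitals mark matches on either strand to the TATA box (TATAAA), the GC box (GGGCGG), the CCAAT box (CCAAT), the NRF1 palindrome (GCGCATGCGC) or the AP-1 site (TGANTCA), where overlapping matches run together. The first CXCR4 start has the minus-strand window chr2:136118150-136118399, CXCR3 the minus-strand window chrX:71618512-71618761 and CCR2 the plus-strand window chr3:46353861-46354110.
CXCR4: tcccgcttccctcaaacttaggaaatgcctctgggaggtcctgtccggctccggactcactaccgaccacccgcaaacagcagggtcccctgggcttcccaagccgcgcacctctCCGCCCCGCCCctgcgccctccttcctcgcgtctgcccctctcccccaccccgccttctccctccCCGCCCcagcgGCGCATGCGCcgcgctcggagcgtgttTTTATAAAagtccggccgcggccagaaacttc
CXCR3: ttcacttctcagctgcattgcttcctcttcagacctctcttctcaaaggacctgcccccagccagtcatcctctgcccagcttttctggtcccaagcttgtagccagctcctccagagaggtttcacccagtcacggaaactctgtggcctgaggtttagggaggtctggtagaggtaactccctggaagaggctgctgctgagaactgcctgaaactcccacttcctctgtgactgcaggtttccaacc
CCR2: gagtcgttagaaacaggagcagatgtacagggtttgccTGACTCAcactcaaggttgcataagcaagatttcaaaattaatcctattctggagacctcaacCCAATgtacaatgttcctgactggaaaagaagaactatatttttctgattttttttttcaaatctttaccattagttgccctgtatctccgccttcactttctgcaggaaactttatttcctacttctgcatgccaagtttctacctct
The CXCR4 sequence is 68% G or C with 24 CpG dinucleotides, against a median G or C content of 58% over 35116 promoter windows of the same length. It holds a TATA box that ends 25 bases before the start and overlaps its reverse match, 3 GC boxes, of which 2 overlap by 1 base, and the NRF1 palindrome, 59 to 50 bases before the start. That palindrome occurs in 1.03% of all windows, the TATA box in 10.7% and the GC box in 42.6%. CXCR3 has 54.8% G or C, 1 CpG and none of the 5 motifs. CCR2 has 38.8% G or C and 2 CpG, with an AP-1 site 212 to 206 bases before the start, a motif of 6.57% of windows, and a CCAAT box, one of 32% of windows. A match describes the letters only and is no evidence that a factor binds there.

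Untreated OPM1 and MM1S cells differed in which receptors they expressed. Signals of CXCR4 and CCR7 were higher in OPM1, and those of CXCR3, CCR2 and CCR10 were higher in MM1S, by limma (a linear model over all genes with a shared estimate of spread) on log2(signal + 32). Of the 8 members, 5 passed the filter that left out the 40% of genes with the lowest mean, and 5 were called at a Benjamini-Hochberg adjusted p under 0.05, 2 higher and 3 lower in OPM1. Of all 11865 genes tested, 64.8% were called, 29% higher and 35.8% lower. Members bright in 1 line alone pass that filter through that line and had to differ, so nothing is read from the count. Over the 13 probe sets fitted without a filter, 9 were called (4 higher and 5 lower in OPM1), against 35.4% of 41091 probe sets (16.1% higher and 19.2% lower).

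CXCR4, the CXCL12 receptor, gave 651 and 558 on the MM1S control arrays and 3442 and 3176 on the OPM1 control arrays by probe set 217028_at. Every OPM1 control array was above every MM1S control array, and the OPM1 mean was 5.48 times the MM1S mean. The log2 difference was 2.40 ± 0.15 (SE, adjusted p = 9.2e-12 by limma). Scaling the arrays to their poly-A controls in place of the authors' normalization turned this difference to -1.73 (adjusted p = 1.1e-09, limma). On the MM1S arrays the mean of those controls, 19.7 to 25.7, lay below the dim reference's 36.9. This scaling therefore cannot settle the direction between the lines. The other CXCR4 probe sets, 209201_x_at and 211919_s_at, gave 1.05 each (adjusted p = 0.0104 and 0.0149), and both missed the threshold without the first (1.09 and 1.00) or the second (1.01 and 1.09) MM1S control array. Without the second OPM1 control array they gave 0.52 and 0.48, and the latter missed it (adjusted p = 0.0726).

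CCR7, the receptor for CCL19 and CCL21 that leads cells into T cell zones, gave 3.30 and 2.75 on the MM1S control arrays and 141 and 113.5 on the OPM1 control arrays. Its log2 difference was 2.18 ± 0.14 (adjusted p = 1.0e-11, limma), with the MM1S signals far below the dim reference. CXCR3, the receptor for the interferon-induced chemokines CXCL9, CXCL10 and CXCL11, gave 391 and 342 in MM1S and 25.15 and 24.3 in OPM1 by probe set 207681_at. The log2 difference (OPM1 minus MM1S) was -2.81 ± 0.12 (adjusted p = 2.5e-14, limma). CCR2, the receptor for CCL2 known best from monocytes, gave 517 and 423 in MM1S and 9.57 and 7.73 in OPM1 by probe set 206978_at, a log2 difference of -3.62 ± 0.13 (adjusted p = 8.7e-16, limma). CCR10, the receptor for CCL27 and CCL28 found on plasma cells bound for mucosa and skin, gave 961 and 654 in MM1S and 13.4 and 2.36 in OPM1. Its log2 difference of -4.39 ± 0.17 (adjusted p = 2.8e-15, limma) was the largest of the 5. The second probe sets of CXCR3 and CCR2 gave smaller differences of the same direction, -0.67 (adjusted p = 1.6e-03) for 217119_s_at and -0.89 (adjusted p = 0.0101) for 207794_at. The latter missed the threshold without the first MM1S control array (-0.78, adjusted p = 0.0904) or the second OPM1 control array (-0.84, adjusted p = 0.0636). The lower group of CCR7, CXCR3, CCR2 and CCR10 lay below the dim reference, so the sizes of these log2 values depend on the pseudocount of 32 and on the scaling. With a pseudocount of 1, CCR7 gave 4.99, CCR2 -5.61 and CCR10 -6.83. Poly-A scaling gave -5.88 for CXCR3, -6.44 for CCR2 and -7.20 for CCR10, and 0.58 (adjusted p = 0.0268) for the CCR7 probe set 206337_at in the fit over all probe sets. As means over their probe sets CXCR3 gave -1.74 and CCR2 -2.26. The directions of the 4 held in all alternatives that tested them. In the fits over genes with the filter these members had to differ, so that is not read as support. The limma fit over all probe sets has no filter. It gave adjusted p of 3.0e-07 for CCR7, 2.9e-08 for CXCR3 207681_at, 9.4e-09 for CCR2 206978_at and 2.9e-08 for CCR10. The difference in the sums of B cell and plasma cell markers stood beside these receptor differences between the same arrays. The part of those markers in the result was not tested.

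With Zalypsis, CXCR4 fell in OPM1 and not detectably in MM1S. By probe set 217028_at the signal went from 3442 and 3176 on the control arrays to 379 and 415 on the treated arrays of OPM1. In MM1S it was 651 and 558 without and 725 and 639 with the drug. The OPM1 groups lay far apart and the MM1S groups overlapped. The mean of 3309 ± 188 (SD, n = 2) in OPM1 controls fell to 397 ± 25.4, 8.33 times lower, and the means in MM1S were 604 ± 65.9 and 682 ± 60.8. On the log2 scale CXCR4 fell by 2.96 ± 0.15 in OPM1 (SE, 95% interval -3.27 to -2.65, adjusted p = 3.6e-13 by limma), and the value in MM1S was 0.17 ± 0.15 (interval -0.14 to 0.48, adjusted p = 0.408). The difference between the responses of the lines was -3.13 ± 0.21 (adjusted p = 4.3e-10, limma). In bulk RNA, fewer cells with CXCR4 and less CXCR4 RNA per cell cannot be told apart.

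On the authors' scale the order of CXCR4 levels was OPM1 control first, then both MM1S groups, whose arrays overlapped, and treated OPM1 last. Poly-A scaling, with -1.73 for untreated OPM1 minus MM1S, does not keep this order. Its controls lay below the dim reference on the MM1S arrays, so it cannot order the lines. The call in OPM1 held in 21 of 21 alternatives, between -4.20 with poly-A scaling and -1.83 for the mean over its probe sets. It was -2.90 without the first OPM1 control array, the one with the high 3' to 5' ratio. In the same OPM1 arrays the summed B cell markers went from 12574 to 14806 in controls to 5242 to 6464 in treated arrays, and plasma cell markers from 5681 to 6282 down to 4149 to 4615. T cell markers went from 350 to 380 down to 157 to 171. Myeloid markers went from 124 to 126 up to 193 to 272, with CD14 at 5.36 and 98.6 (log2 1.78, adjusted p = 3.0e-09 by limma). The upper quartile of signal and the poly-A controls moved between the same groups, and the part of these in the fall was not tested.

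The other probe sets of CXCR4 gave the same direction in OPM1 with smaller values. Probe set 209201_x_at gave 301 and 662 on the OPM1 control arrays and 153 and 189 on the treated ones, and 207 and 194 against 253 and 221 in MM1S. Probe set 211919_s_at gave 299 and 699 against 146 and 194 in OPM1, and 198 and 213 against 241 and 213 in MM1S. Both OPM1 control arrays were above both treated arrays for each, and the first control array stood at under 0.5 times the second. The log2 values in OPM1 were -1.25 ± 0.27 (adjusted p = 3.4e-03) and -1.29 ± 0.29 (adjusted p = 4.2e-03) in the limma fit over all probe sets, and -0.72 for both without the second OPM1 control array. Without the first treated OPM1 array, 211919_s_at missed the threshold (-1.12, adjusted p = 0.0560).

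**Figure D2:**
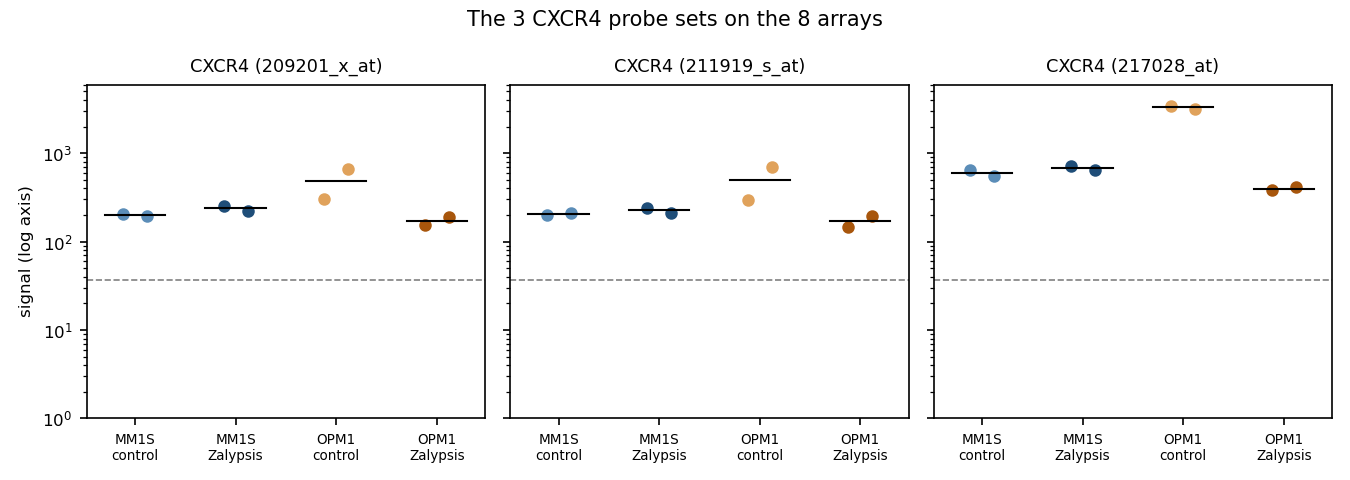
Signal (log axis) of the 3 CXCR4 probe sets on each array. Points are arrays, 2 in each group, short black lines are group means and the dashed line is the dim reference's 90th percentile. In all 3 panels the treated OPM1 arrays lie below the OPM1 control arrays, and the OPM1 control arrays lie apart for 209201_x_at (301 and 662) and 211919_s_at (299 and 699) but not for 217028_at (3442 and 3176).

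CCR7 also fell in OPM1. Its signals went from 141 and 113.5 on the control arrays to 49.1 and 39.6 on the treated arrays, and in MM1S they were 3.30 and 2.75 without and 4.09 and 6.09 with the drug. The OPM1 groups did not overlap, and the MM1S signals were below the dim reference throughout. The OPM1 mean of 127 ± 19.7 (SD, n = 2) fell 2.87 times to 44.4 ± 6.74, which lies below the 90th percentile of the dim reference on the treated OPM1 arrays, 61.8. CCR7 passed the filter on dim genes through the OPM1 controls alone, so in the fit over genes it had to be lower in treated OPM1. That fit gave -1.06 ± 0.14 on the log2 scale (adjusted p = 6.9e-07, limma). The difference between the responses was -1.14 ± 0.19 (adjusted p = 5.6e-05). The limma fit over all probe sets, which has no filter, gave the same log2 values with adjusted p of 6.6e-05 and 1.3e-03. In the fit over genes the call in OPM1 held in 19 of 19 alternatives, from -1.50 to -0.82. Nothing is read from that, since most of them kept the filter. CCR7 levels ran from OPM1 control to treated OPM1, with the MM1S groups below both.

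CCR2 fell in MM1S. By probe set 206978_at it gave 517 and 423 on the control arrays and 299 and 266 on the treated arrays, and in OPM1 9.57 and 7.73 without and 11.3 and 8.05 with the drug. The MM1S groups did not overlap, and the OPM1 groups did, below the dim reference. The MM1S mean of 470 ± 66.4 (SD, n = 2) fell 1.66 times to 283 ± 23.8. On the log2 scale it fell by 0.67 ± 0.13 (adjusted p = 2.9e-04, limma), a call kept in 21 of 21 alternatives with a largest adjusted p of 0.0242. In the fit over all probe sets, the adjusted p of 5.7e-03 rose to 0.0656 without the first MM1S control array (-0.54) and to 0.0616 without the second treated one (-0.59). The value in OPM1 was 0.03 ± 0.13 (adjusted p = 0.835), and the difference between the responses was 0.71 ± 0.18 (adjusted p = 3.2e-03). Probe set 207794_at gave 91.8 and 73.7 against 88.3 and 37.3 in MM1S, which overlapped, and -0.32 on the log2 scale (adjusted p = 0.429). Without the first treated MM1S array this probe set gave -0.72 (adjusted p = 0.0448) and without the second 0.073. In OPM1 it gave 31.9 and 27.6 without and 56.1 and 38.9 with the drug, a log2 value of 0.36 (adjusted p = 0.275).

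CCR10 rose in MM1S. It gave 961 and 654 on the control arrays and 1440.0 and 1199 on the treated arrays, and in OPM1 13.4 and 2.36 without and 9.33 and 11.4 with the drug. The treated MM1S arrays were both above the controls, and the OPM1 arrays overlapped below the dim reference. The MM1S mean went from 807 ± 217 (SD, n = 2) to 1319 ± 171, 1.63 times higher, and the log2 value was 0.71 ± 0.17 (adjusted p = 2.2e-03, limma). Without the second MM1S control array it was 0.44 and missed the threshold (adjusted p = 0.0791). With poly-A scaling it was 0.50 (adjusted p = 0.0890), and in the fit over all probe sets the adjusted p was 0.0288. That fit missed the threshold without any 1 of 5 arrays, the second MM1S control array and the 4 treated arrays (0.44 to 0.83). The difference between the responses was -0.61 ± 0.24 (adjusted p = 0.0427), which missed the threshold in 12 of 20 alternatives. With a pseudocount of 1 it was -0.027 (adjusted p = 0.977), where the OPM1 means of 7.88 and 10.4 lay below the dim reference. Among the others, it was -0.40 (adjusted p = 0.196) without the first OPM1 control array, -0.34 (0.267) without the second MM1S control array, -0.48 (0.147) without the first treated MM1S array, and -0.57 (0.110) and -0.64 (0.0704) without the first and the second treated OPM1 array.

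By probe set 207681_at CXCR3 was called lower with the drug in both lines in the fit over genes, with small values, and in OPM1 this is not read as a fall. It gave 391 and 342 on the MM1S control arrays and 281 and 282 on the treated ones, and 25.15 and 24.3 against 6.73 and 10.35 in OPM1. Neither pair of groups overlapped, and all OPM1 signals were below the dim reference. The MM1S mean went from 367 ± 34.5 to 281 ± 0.64 (SD, n = 2), 1.30 times lower, and the log2 value was -0.35 ± 0.12 (adjusted p = 0.0317, limma). This call was lost in 9 of 21 alternatives, among them without the first MM1S control array (-0.26, adjusted p = 0.219), without the first treated MM1S array (-0.34, adjusted p = 0.122) and without the second (-0.35, adjusted p = 0.105). In OPM1 the log2 value was -0.49 ± 0.12 (adjusted p = 1.6e-03), and it missed the threshold with poly-A scaling (-0.32, adjusted p = 0.134) and as a mean over both probe sets (-0.19, adjusted p = 0.0751). Probe set 217119_s_at gave 56.1 and 60.7 against 50.2 and 56.8 in MM1S and 24.0 and 25.9 against 25.3 and 33.8 in OPM1, which overlapped in both lines. The responses of CXCR3 in the lines differed by -0.14 on the log2 scale (95% interval -0.50 to 0.22, adjusted p = 0.540). With a pseudocount of 1 this was -1.08 and passed the threshold (adjusted p = 0.0066, and 0.0324 in the fit over all probe sets), with the OPM1 signals below the dim reference.

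CXCR5, the CXCL13 receptor of B cell follicles, was dim. Probe set 206126_at gave 15.7 and 18.55 against 35.2 and 24.3 in MM1S and 21.5 and 16.9 against 40.4 and 20.3 in OPM1. A single treated OPM1 array was above the dim reference, and without the other treated array the OPM1 value was 0.50 (adjusted p = 0.0418), against 0.27 (adjusted p = 0.252) with all arrays. Probe set 216734_s_at gave 20.9 and 22.5 against 7 and 10.8 in OPM1, which did not overlap, and its log2 value of -0.39 ± 0.10 had an adjusted p of 0.0120. All its signals were below the dim reference, and the call was lost without the second OPM1 control array (-0.37, adjusted p = 0.0515) and without the first treated OPM1 array (-0.33, adjusted p = 0.0791). The 2 probe sets pointed in opposite directions in OPM1. CCR6, the CCL20 receptor of mucosal lymphoid tissue, gave signals of 5.79 to 15.3, with log2 values of 0.03 in MM1S and -0.15 in OPM1 (adjusted p = 0.313). S1PR1, the egress receptor, gave 8.91 to 18.8, with log2 values of 0.03 (adjusted p = 0.939) and 0.12 (adjusted p = 0.553). No change of CCR6 or S1PR1 passed the test at these signals.

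Counted over genes, 3 members were called in MM1S (1 higher and 2 lower), against 38.3% of all genes tested (16.6% higher and 21.7% lower). In OPM1, 3 were called (0 higher and 3 lower), against 64.5% (25.5% higher and 39% lower). The responses differed for 4 members (1 higher and 3 lower in OPM1), against 47.6% (15.8% and 31.7%). Over the 13 probe sets, 2 were called in MM1S (1 higher and 1 lower), against 17.8% of all probe sets (6.44% and 11.3%), and 6 in OPM1, all lower, against 35.7% (13.6% higher and 22.1% lower). For the difference, 5 were called (1 higher and 4 lower), against 21.8% (7.07% and 14.7%). By the rule in the series' design text, a change over 2-fold in mean signal, 0 of the 5 members that passed the filter changed in MM1S, where 3.87% of genes rose and 10.5% fell so far. In OPM1, 3 were lower by that much (CXCR4, CXCR3 and CCR7), against 27.4% of genes, with 11.5% of genes higher. The CXCR3 signals behind this ratio, 24.7 and 8.54, both lie below the dim reference, so the ratio is not read as a fall. The treated CCR7 mean of 44.4 lies above 36.9, but below the dim reference's 90th percentile on the treated OPM1 arrays, 61.8. Between the untreated lines all 5 did, against 14.3% of genes higher and 19.6% lower in OPM1. With so few members, nothing particular to homing receptors is read from these counts. The median log2 change of all genes was 0.02 in MM1S and -0.07 in OPM1. The difference between the responses comes from the same arrays as the comparisons within the lines.

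**Figure D3:**
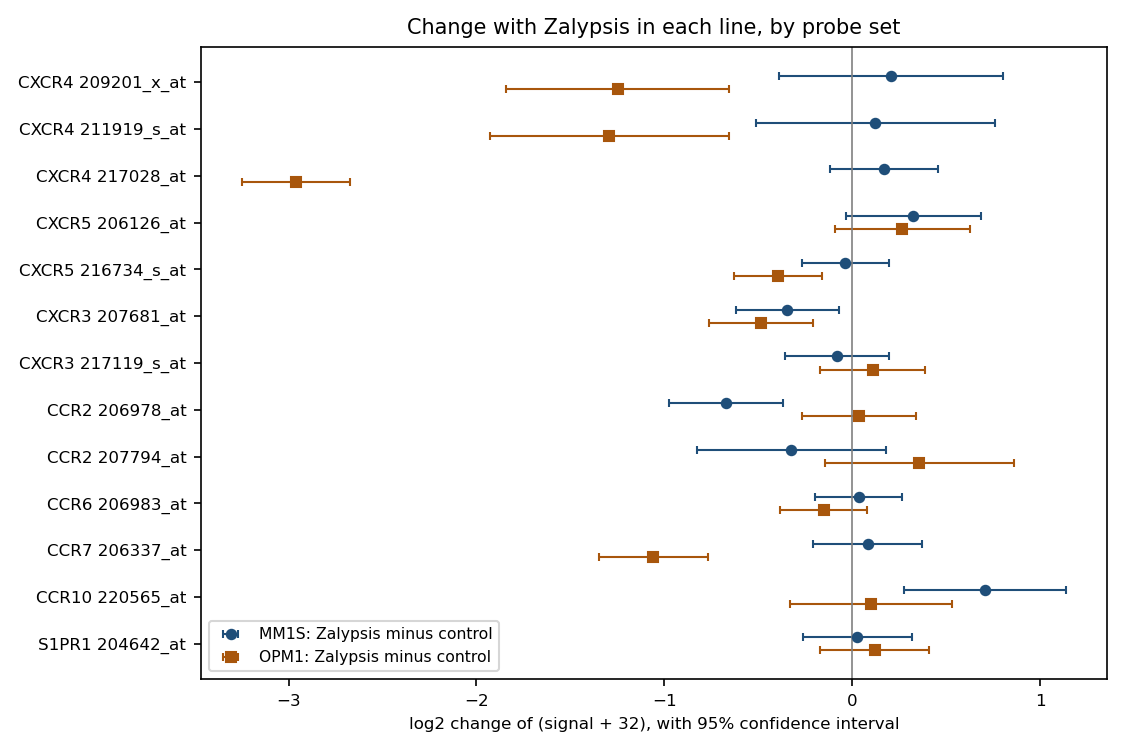
Log2 change of (signal + 32), Zalypsis minus control, for the 13 probe sets of the homing receptors in MM1S (circles) and OPM1 (squares), with 95% confidence intervals from the limma fit over all probe sets. CXCR4 and CCR7 lie far to the left in OPM1 only (-2.96 and -1.06), CCR2 206978_at to the left in MM1S (-0.67) and CCR10 to the right in MM1S (0.71).

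Over the 8 arrays, the tested genes most like each bright member by Pearson correlation of log2 values were ZFR (0.995), FRMD4B and BEST3 (each 0.994) for CXCR4, and PALLD, C3orf52 and CBX7 (each 0.999) for CXCR3. LHX8, TSPAN7 and UGT2B15 (0.999 or above) were most like CCR2, SLC17A9 (0.999), CD1D (0.998) and HEATR6 (0.997) most like CCR7, and TTLL9, UPP1 and CXCL16 (each 0.999) most like CCR10. With 4 groups of 2 arrays such values mostly describe the pattern of 4 means. BEST3, for example, had means of 31.1, 34.0, 813 and 10.1 in the MM1S control, MM1S Zalypsis, OPM1 control and OPM1 Zalypsis groups.

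In the lists that follow, counts are to be read against all genes tested, of which 16.6% rose and 21.7% fell in MM1S and 25.5% rose and 39% fell in OPM1. Among 8 tested of 17 other chemokine receptors, 1 rose and 1 fell in MM1S (median log2 0.19) and 0 rose and 1 fell in OPM1 (median -0.00, and 0.06 with quantile normalization). CCR1, a receptor of inflammatory chemokines, stood at 2367 in MM1S controls and 1813 in treated MM1S (-0.39 ± 0.14, adjusted p = 0.0401, limma), a call lost in 9 of 21 alternatives, among them the omission of either MM1S control array (-0.36 and -0.41), of the second treated MM1S array (-0.25, adjusted p = 0.315) or of either treated OPM1 array (-0.39 each). In OPM1 CCR1 was dim, at 8.05 and 11.1. ACKR3, a decoy receptor that binds CXCL12, rose in MM1S from 69.5 to 117 (0.54 ± 0.13, adjusted p = 2.9e-03), which was 0.36 (adjusted p = 0.0974) without the first treated array and 0.26 (adjusted p = 0.0530) as a mean over its probe sets. ACKR4, a decoy receptor for the CCR7 ligands, fell in OPM1 from 322 to 18.5 (-2.81 ± 0.13, adjusted p = 7.8e-14) and was dim in MM1S, at 8.04 and 11.2. It passed the filter on dim genes through the OPM1 controls alone and had to be lower in treated OPM1.

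Among 8 tested of 14 other genes of S1P receptors and metabolism, 2 rose and 1 fell in MM1S (median -0.13), and 1 rose and 4 fell in OPM1 (median -0.41, but 0.08 with quantile normalization, which turns the sign and leaves 1 higher and 2 lower of 7). S1PR4, a receptor of haematopoietic cells, fell in OPM1 from 95.8 to 40.8 (-0.81 ± 0.13, adjusted p = 8.8e-06, limma) and was 11.2 and 16.2 in MM1S. It passed the filter on dim genes through the OPM1 controls alone and had to be lower in treated OPM1. SGPP1, a phosphatase that degrades S1P, fell in OPM1 from 156 to 56.0 (-1.08 ± 0.13, adjusted p = 2.8e-07), and gave -0.69 as a mean over its probe sets. In MM1S it went from 137 to 187 (0.37, adjusted p = 0.0319), a call lost without any 1 of the 4 MM1S arrays (0.34 to 0.39 in those fits). SPHK1, a kinase that makes S1P, was called higher in both lines, from 27.25 to 47.6 in MM1S (0.44, adjusted p = 0.0184) and from 42.7 to 70.75 in OPM1 (0.46, adjusted p = 6.7e-03). These signals lay near the dim reference, 36.9 over all arrays and 61.8 on the treated OPM1 arrays. The calls of SPHK1 were lost without the second MM1S control array (0.26), the first or second treated MM1S array (0.45 and 0.42) and the first OPM1 control array (0.34), and poly-A scaling turned the OPM1 value to -0.31. S1PR2, a receptor that confines B cells to follicles, gave -0.55 in OPM1 (adjusted p = 4.4e-03), lost without the second control array (-0.33, adjusted p = 0.0862) or the first treated array (-0.40, adjusted p = 0.0745). Its OPM1 value was -0.21 (adjusted p = 0.243) with quantile normalization, -0.25 (adjusted p = 0.0543) as a mean over its probe sets and -1.08 with poly-A scaling.

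Of the members' 15 ligands, 3 passed the filter on dim genes, of which 0 were called in MM1S (median 0.06) and 1 rose in OPM1 (median 0.20). CXCL12 was dim in every group, at 30.8, 20.4, 26.6 and 25.9 in the MM1S control, MM1S Zalypsis, OPM1 control and OPM1 Zalypsis means. MIF, a cytokine that also binds CXCR4, rose in OPM1 from 6485 to 9763 (0.61 ± 0.11, adjusted p = 9.0e-05, limma), but gave 0.37 without the first OPM1 control array and -1.47 with poly-A scaling. In MM1S it was 8591 and 8321 (adjusted p = 0.800).

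Of 8 tested receptors among 9 others that position lymphoid cells, 1 rose and 1 fell in MM1S (median 0.17), and 1 rose and 6 fell in OPM1 (median -0.56), against 25.5% and 39% of all genes. With quantile normalization 2 rose and 4 fell in OPM1. P2RY8, which confines germinal centre B cells, fell in both lines, from 1167 to 547 in MM1S (-1.04 ± 0.16, adjusted p = 2.2e-05, limma) and from 954 to 30.9 in OPM1 (-3.97 ± 0.16, adjusted p = 1.6e-14). CD69, a membrane protein that pulls S1PR1 off the cell surface, fell in OPM1 from 145 to 62.0 (-0.91 ± 0.13, adjusted p = 2.6e-06) and was dim in MM1S. It passed the filter on dim genes through the OPM1 controls alone and had to be lower in treated OPM1. GPR183, an oxysterol receptor of B cell positioning, fell in OPM1 from 110 to 63.3 (-0.57 ± 0.13). PTGER4, a prostaglandin E2 receptor, rose in MM1S from 52.6 to 173 (1.27 ± 0.12, adjusted p = 3.5e-08) and was called lower in OPM1, from 37.7 to 21.9 (-0.37, adjusted p = 0.0112). As a mean over its probe sets it gave 0.76 in MM1S and -0.18 in OPM1, which missed the threshold (adjusted p = 0.0545). LTB4R, a leukotriene receptor, rose in OPM1 from 115 to 285 (1.13 ± 0.15, adjusted p = 1.3e-06), though with poly-A scaling it was 0.18 (adjusted p = 0.347).

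**Figure D4:**
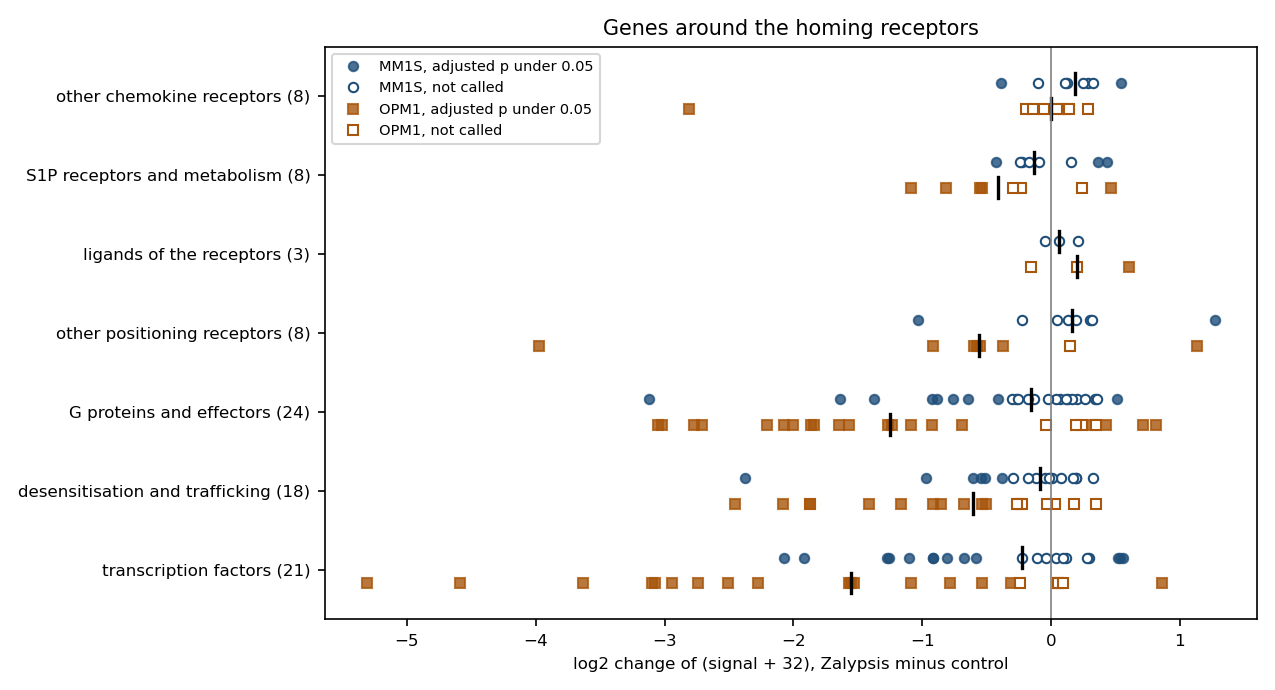
Log2 change of (signal + 32), Zalypsis minus control, of each tested gene in 7 lists around the homing receptors, with the number tested in parentheses, in MM1S (circles) and OPM1 (squares). Filled symbols passed an adjusted p under 0.05 and black bars are list medians, which in OPM1 lie furthest left for the transcription factors (-1.56) and the G proteins and effectors (-1.25).

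Of 24 tested G proteins and effectors of chemotaxis, 1 rose and 8 fell in MM1S (median -0.15), against 16.6% and 21.7% of all genes, and 4 rose and 16 fell in OPM1 (median -1.25), against 25.5% and 39%. With quantile normalization 7 rose and 16 fell in OPM1. DOCK2, the Rac activator that lymphocytes need for chemotaxis, fell in MM1S from 528 to 32.7 (-3.12 ± 0.17, adjusted p = 3.9e-12, limma) and in OPM1 from 400 to 71.6 (-2.07 ± 0.17, adjusted p = 4.7e-10). As a mean over its probe sets it gave -1.38 and -0.88. PTK2B, a kinase related to focal adhesion kinase, fell in MM1S from 669 to 190 (-1.64 ± 0.15). GNB1, a G protein beta subunit, fell in OPM1 from 1936 to 204 (-3.05 ± 0.16), as did PREX1, a Rac activator that G protein beta-gamma subunits bind, from 411 to 22.6 (-3.02 ± 0.15). PREX1 passed the filter on dim genes through the OPM1 controls alone and had to be lower in treated OPM1. GNG7, a gamma subunit, fell by 1.37 on the log2 scale in MM1S and gave -2.77 in OPM1 by a probe set of the _s_at class. Its best probe set outside the _x_at and _s_at classes gave 0.024 and 0.41. These probe sets disagree, and which is the better measure of the gene was not tested. The genes called higher in OPM1 included GNB2 (0.82, adjusted p = 2.0e-04) and JAK2 (0.72, adjusted p = 5.1e-05), which gave -0.94 and -0.019 with poly-A scaling. JAK2 gave 0.026 (adjusted p = 0.795) as a mean over its probe sets. Its OPM1 means, 9.83 without and 36.9 with the drug, lay below 61.8, the dim reference's 90th percentile on the treated OPM1 arrays.

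Of 18 tested genes of receptor desensitisation and trafficking, 0 rose and 6 fell in MM1S (median -0.08), against 16.6% and 21.7% of all genes, and 0 rose and 11 fell in OPM1 (median -0.60), against 25.5% and 39%. With quantile normalization 4 rose and 10 fell in OPM1. GRK5, a kinase that phosphorylates active receptors, fell from 289 to 29.8 in MM1S (-2.38 ± 0.12) and from 180 to 6.71 in OPM1 (-2.45 ± 0.12), by a probe set of the _s_at class. Its best probe set outside that class gave 0.072 and -0.14. CLTC, the clathrin heavy chain, fell in OPM1 from 4061 to 932 (-2.08 ± 0.13, adjusted p = 1.6e-11, limma), but gave -0.64 there as a mean over its probe sets and -3.74 with poly-A scaling. AP2B1, an adaptor of clathrin-coated pits, fell there from 373 to 78.3 (-1.87 ± 0.15, adjusted p = 5.1e-10). In MM1S it gave -0.54, and -0.38 (adjusted p = 0.107) without the first control array. RAB7A, a small GTPase of late endosomes, fell by 1.87 on the log2 scale in OPM1, though its best probe set outside the _x_at and _s_at classes gave 0.43.

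Of 21 tested transcription factors known to act on homing receptor genes, 3 rose and 10 fell in MM1S (median -0.22), against 16.6% and 21.7% of all genes, and 1 rose and 16 fell in OPM1 (median -1.56), against 25.5% and 39%. With quantile normalization 4 rose and 15 fell in OPM1. In OPM1 the largest falls were those of the B lineage factors PAX5, from 3219 to 50.9 (-5.31 ± 0.16, adjusted p = 7.8e-16, limma), BACH2, from 924 to 7.78 (-4.59 ± 0.13), and EBF1, from 512 to 11.8 (-3.63 ± 0.14). PAX5, BACH2 and EBF1 passed the filter on dim genes through the OPM1 controls alone and had to be lower in treated OPM1. POU2AF1, a B cell coactivator, fell there from 2681 to 286 (-3.10 ± 0.13). In MM1S the largest falls were those of IRF4, on which plasma cells depend, from 4383 to 1012 (-2.08 ± 0.17, adjusted p = 2.5e-09), and MEF2C, from 2766 to 712 (-1.91 ± 0.15). POU2F2 fell in OPM1 from 821 to 145 (-2.27 ± 0.14). In MM1S it was called higher, from 132 to 207 (0.54), but gave 0.38 (adjusted p = 0.132) without the first treated array. As means over their probe sets the OPM1 values were smaller, -2.66 for PAX5, -1.63 for EBF1, -1.61 for POU2AF1 and -1.31 for POU2F2, and in MM1S IRF4 gave -1.04 and POU2F2 0.25 (adjusted p = 0.0514). BACH2 gave -2.69 in OPM1 with poly-A scaling. RELA, a subunit of NF-kappa-B, was called higher in MM1S (0.52, adjusted p = 0.0116) and OPM1 (0.87, adjusted p = 5.3e-05). These gave 0.35 (adjusted p = 0.130) without the second MM1S control array, 0.38 (adjusted p = 0.179) without the first treated MM1S array and -1.04 in OPM1 with poly-A scaling.

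The list medians stand against a median of all genes in OPM1 of -0.07, which was 0.10 with quantile normalization and -0.93 with poly-A scaling. In OPM1 the medians of the G protein, trafficking and transcription factor lists stayed below that of all genes under each of these scalings. Poly-A scaling gave -1.56, -1.57 and -2.14 for them and quantile normalization -1.09, -0.41 and -1.27. The receptor lists did not all do so: the other positioning receptors gave -0.28 with quantile normalization and -0.80 with poly-A scaling, which is above the median of all genes there. The lists were chosen with earlier results of these data known. Some of their genes, such as ACKR4, S1PR4, CD69, PAX5, BACH2, EBF1 and PREX1, passed the filter on dim genes through the OPM1 controls alone and had to be lower in treated OPM1. The medians are therefore given as a description, and nothing is read from them.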

How the data were processed

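The deposited file holds linear intensity values of 54675 probe sets on 8 arrays, which the authors computed in dChip, per the series' design text. How dChip was run (version, normalization, probe model) is not given in the sources used here. Total RNA, 100 ng a sample, went through 2 cycles of amplification, per the labels' protocols. Values were kept as deposited and turned into log2(value + 32). The 62 control probe sets and the 1801 with several and 11721 with no gene symbol were left out of tests. Of the other 41091, the one with the highest mean stood for each of 19775 genes, and genes below a signal of 28.9, 40% of all, were left out. The 11865 others were fitted in R 4.3.3 by limma 3.58.1 (lmFit, then eBayes with trend), with a mean for every group over all 8 arrays, 4 residual and 16.2 prior degrees of freedom and Benjamini-Hochberg adjustment. All 41091 probe sets were fitted likewise with no filter. The steps were tested on simulated data. Errors of log2 values are standard errors, and those of signals are SDs of 2 arrays, whose number limits the precision. Members and gene lists were chosen with earlier results of these data known. Named genes are all members, up to 4 called genes per direction, line and list with the largest changes, list genes given as dim, and the 3 genes most like each bright member. Alternatives included other pseudocounts, no filter, the mean over probe sets, no _x_at or _s_at probe sets, quantile normalization, poly-A scaling, a replicate block and each array left out. Promoters came from RefSeq.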

Additional observations from a re-analysis of the deposited data

Results flagged for a closer look

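These results differed between the lines by a test of the difference itself, the response in OPM1 minus that in MM1S on the log2 scale, with Benjamini-Hochberg adjusted p from limma. No explanation was tested for any of them. CXCR4 gave -3.13 ± 0.21 (adjusted p = 4.3e-10), and its other probe sets 209201_x_at and 211919_s_at gave -1.46 ± 0.38 (adjusted p = 0.0185) and -1.42 ± 0.41 (adjusted p = 0.0294), each lost without any of several single arrays, such as -1.50 (adjusted p = 0.0608) and -1.37 (adjusted p = 0.104) without the first MM1S control array. CCR7 gave -1.14 ± 0.19 (adjusted p = 5.6e-05), where the MM1S signals were below the dim reference. It passed the filter on dim genes through the OPM1 controls alone, and the limma fit without the filter gave an adjusted p of 1.3e-03. CCR2 gave 0.71 ± 0.18 (adjusted p = 3.2e-03) and CCR10 -0.61 ± 0.24 (adjusted p = 0.0427), where the OPM1 signals were below the dim reference. The CCR10 call was lost in 12 of 20 alternatives, was -0.027 (adjusted p = 0.977) with a pseudocount of 1, and had an adjusted p of 0.162 in the limma fit over all probe sets. Among the genes around the receptors, POU2F2 gave -2.81 ± 0.20 (adjusted p = 1.0e-09), PTGER4 -1.64 ± 0.17 (adjusted p = 1.7e-07) and SGPP1 -1.45 ± 0.19 (adjusted p = 2.1e-06). Groups of 2 arrays are too small for a search for single outlying arrays.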

How the results depend on the processing

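Of 2754 recomputed values of single genes and probe sets, 2545 kept their direction and their side of the threshold, 136 lost the call, 12 gained it and 61 changed sign, 41 of these with no call in either setting. Of 160 recomputed counts of called members, 141 stayed within 1.5 times. For those that did not, the cause was not tested. In MM1S, 3 called genes became 1 with a pseudocount of 1 and 0 by a rule of over 2-fold in mean signal, and 2 called probe sets became 1 with a pseudocount of 16, 0 with a pseudocount of 1 and 1 with only the arrays compared. Without _x_at and _s_at probe sets, 3 probe sets were called in OPM1 and 3 for the difference between the responses, since fewer were tested. With poly-A scaling, 1 gene was called in OPM1 and 2 for the difference. CXCR3 missed the threshold in OPM1 and CCR10 for the difference, and CCR7 was not among the genes tested. In the fit over all probe sets the CCR7 probe set kept both calls with this scaling. With 1 array left out, called genes ranged from 2 to 3 in MM1S, 3 to 3 in OPM1, 3 to 4 for the difference and 5 to 5 between untreated lines, and called probe sets from 0 to 2, 3 to 7, 2 to 5 and 6 to 9.

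Same-numbered arrays share only a number, and their deviations correlated at 0.214 and 0.202 between the groups of 1 line and at -0.129 between the control groups of the lines. With the replicate number as a block, 3, 3, 4 and 5 genes and 2, 6, 5 and 9 probe sets were called, as without it. A block within each line, added after the data were seen, gave 7 probe sets for the difference, and the crossed pairing of the untreated lines gave 5 genes and 9 probe sets.

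Poly-A scaling rests, on the MM1S arrays, on controls below the dim reference, so it cannot settle comparisons between the lines. It turned the untreated comparison of CXCR4 to -1.73 (probe sets 217028_at -1.73, 209201_x_at -2.82 and 211919_s_at -2.83), of CXCR5 to -1.87 and -1.83 and of CCR6 to -1.12. In OPM1 it turned ACKR3 to -0.54, SPHK1 to -0.31, MIF to -1.47, GNB2 to -0.94, PLCB3 to -0.43, ARHGEF1 to -0.91, JAK2 to -0.019, RELA to -1.04, CCR1 to -0.076, CCR2 to -0.10 (probe set 207794_at -0.25), CCR10 to -0.095, CXCR5 206126_at to -0.18, CXCR3 217119_s_at to -0.24 and S1PR1 to -0.12. In MM1S it turned CXCR4 to -0.047 (211919_s_at -0.080), CCR6 to -0.019 and S1PR1 to -0.065, and for the difference CXCR3 to 0.28 and S1PR1 to -0.060. Without _x_at and _s_at probe sets, GNG7 gave 0.024 in MM1S and 0.41 in OPM1, GRK5 0.072 in MM1S and RAB7A 0.43 in OPM1. As a mean over probe sets, ARHGEF1 gave -0.32 and ACKR3 -0.12 in OPM1, and CXCR3 0.025 for the difference, which was 0.026 with a pseudocount of 64. Quantile normalization gave MIF 0.043 in MM1S and CXCR5 206126_at 0.031 for the difference.

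With 1 array left out, values near 0 changed sign. In MM1S, MIF ranged from -0.13 to 0.038, CXCR5 216734_s_at from -0.076 to 0.0019, CCR6 from -0.040 to 0.11, S1PR1 from -0.13 to 0.18 and CCR2 207794_at from -0.72 to 0.073. In OPM1, CCR10 ranged from -0.10 to 0.30 and CCR2 from -0.021 to 0.091. For the difference, S1PR1 ranged from -0.065 to 0.25 and CXCR5 206126_at from -0.29 to 0.18, and between untreated lines from -0.18 to 0.13 and -0.0065 to 0.12. The signal over the dim reference limits CXCR5, CCR6 and S1PR1 in all groups.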

Other observations

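CCR2 lies on chromosome 3 in a stretch of 9 protein-coding genes of which 8 encode chemokine receptors, and 6 of those were measured. This stretch was chosen after its values were seen, and gene order came from RefSeq annotation of GRCh38.p14. In untreated cells the log2 values of OPM1 minus MM1S were -5.91 for CCR1, -3.62 for CCR2, -1.20 for XCR1 (72.0 in MM1S and 13.4 in OPM1) and -1.03 for CCRL2 (69.2 and 17.5). These 4 were below the dim reference in OPM1, passed the filter on dim genes through MM1S alone and had to differ, and 35.8% of all genes tested were called lower in OPM1, so these values are given as a description. CCR9, at the edge of the stretch, gave 0.23 and CXCR6 0.21. With Zalypsis, CCR1 gave -0.39 in MM1S (adjusted p = 0.0401, limma), a call lost in 9 of 21 alternatives, and CCR2 gave -0.67. XCR1, CCRL2, CCR9 and CXCR6 gave 0.25, 0.32, 0.29 and 0.13 there, and none passed the test (adjusted p = 0.134, 0.194, 0.171 and 0.489).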
